A study of Homo sapiens with 6 samples.

Results

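The accessible regions at 9 genes of insulin and insulin-like growth factor (IGF) receptor signalling were examined, namely INSR, IGF1R, IGF2R, IRS1, IRS2, PIK3R1, AKT1, AKT2 and GRB10. A region was a promoter region of a gene when it overlapped 2 kb on either side of a GENCODE protein-coding transcript start. It was a distal region of the gene when it was no promoter region and the protein-coding start nearest to its midpoint belonged to that gene, within 100 kb. This gave 123 regions, 25 at promoters and 98 distal, of 108542 regions in the whole table. The assay was ATAC-seq, in which the Tn5 transposase cuts open chromatin, and it was run on EndoC-βH3 cells. These are human beta-like cells of fetal pancreatic origin that carry immortalising transgenes flanked by recombination sites. The control group was 3 libraries of non-senescent cells, and the other group was 3 libraries of cells made senescent by 3 weeks of 4-hydroxytamoxifen, which activates Cre and excises the transgenes. Both groups were labelled WT and pancreatic beta cells, each library was made from 100000 cells, and all libraries came from 1 cell line, so the comparison is a model of senescence in that line. The labels do not say that the libraries came from separate cultures, and the adjusted p-values then measure only the spread between these libraries, which may be technical.

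Insulin and the IGFs bind receptor tyrosine kinases at the cell surface, which phosphorylate the insulin receptor substrates. These recruit phosphoinositide 3-kinase, whose lipid product brings the AKT kinases to the membrane, and AKT in turn restrains FOXO factors and GSK3 and promotes protein synthesis. Beta cells both secrete insulin and carry its receptor, and in rodents signalling through IRS2 is known to sustain beta cell mass. GRB10 is an adaptor that binds the activated receptors and dampens the signal, and IGF2R takes up IGF2 for degradation.

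Of 13 called regions named below, 5 are shown here by sequence, as the 300 bases around the midpoint on the plus strand of hg38, because they include the 2 largest rises, the only called promoter region and an element of each direction at IRS2. They were chosen after their values were seen, and called regions of PIK3R1, IGF1R, IGF2R, IRS1 and GRB10 with changes as large as some of these are not shown. Capitals mark matches, on either strand, to a short fixed motif: TGCTGAC (a site of MAF factors), TGANTCA (the AP-1 site) or TGTTTAC (a FOXO site). Windows without capitals held none of the motifs searched.
INSR intron 9 region (higher), chr19:7157668-7157967: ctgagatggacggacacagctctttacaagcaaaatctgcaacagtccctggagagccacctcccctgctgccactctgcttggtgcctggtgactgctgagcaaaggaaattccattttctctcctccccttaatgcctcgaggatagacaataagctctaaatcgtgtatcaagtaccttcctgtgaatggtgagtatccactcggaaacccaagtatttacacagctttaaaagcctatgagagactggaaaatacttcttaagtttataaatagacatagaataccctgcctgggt
PIK3R1 downstream region (higher), chr5:68320573-68320872: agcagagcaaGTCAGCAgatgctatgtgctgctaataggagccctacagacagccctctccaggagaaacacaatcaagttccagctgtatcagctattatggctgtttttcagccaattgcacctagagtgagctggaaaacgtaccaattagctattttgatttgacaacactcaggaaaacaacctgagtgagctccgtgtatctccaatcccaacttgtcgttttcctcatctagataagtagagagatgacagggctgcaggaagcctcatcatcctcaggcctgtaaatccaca
IRS2 intron 1 region (higher), chr13:109778193-109778492: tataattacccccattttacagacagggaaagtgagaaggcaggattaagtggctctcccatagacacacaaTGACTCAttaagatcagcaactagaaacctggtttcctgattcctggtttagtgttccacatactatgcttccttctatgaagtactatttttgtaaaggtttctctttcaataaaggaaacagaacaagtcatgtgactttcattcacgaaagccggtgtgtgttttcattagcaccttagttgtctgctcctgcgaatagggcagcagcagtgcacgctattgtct
IRS2 downstream region (lower), chr13:109720740-109721039: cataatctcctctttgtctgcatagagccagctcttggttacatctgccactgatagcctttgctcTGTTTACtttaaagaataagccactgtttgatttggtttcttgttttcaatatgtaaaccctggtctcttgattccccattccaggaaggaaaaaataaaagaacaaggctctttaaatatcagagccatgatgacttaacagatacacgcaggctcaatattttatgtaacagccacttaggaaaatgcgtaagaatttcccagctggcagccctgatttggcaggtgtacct
AKT1 promoter region (lower), chr14:104796251-104796550: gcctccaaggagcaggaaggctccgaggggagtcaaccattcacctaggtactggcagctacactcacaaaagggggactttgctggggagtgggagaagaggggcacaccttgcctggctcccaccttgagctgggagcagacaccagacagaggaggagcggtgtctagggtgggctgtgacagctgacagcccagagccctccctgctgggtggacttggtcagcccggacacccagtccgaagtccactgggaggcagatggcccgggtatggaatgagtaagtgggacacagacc

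The cell type label was checked by promoter regions of marker genes. All 9 beta cell markers had one, with mean signals from 509 to 7894, where mean signal is the average over the 6 libraries of read counts scaled by DESeq2 for library size. Markers of alpha, delta, acinar, ductal, mesenchymal, endothelial and blood cells had a promoter region in 11 of 16 cases, with signals from 17.6 to 2101, and PRSS1, CFTR, PDGFRB, CDH5 and PTPRC had none. The strongest were CPA1 of acinar cells at 2101, IRX2 of alpha cells at 1340 and KRT19 of ductal cells at 1059. The signals of these markers thus overlapped those of the beta cell markers. The promoter regions of SST and HHEX, both of delta cells, were lower in senescent cells (log2 fold change −1.08 and −0.87), and the part of other cell types in the results below was not tested. The table names no numerator for its fold change. It was read as senescent over non-senescent, and the promoter of MKI67, a gene of dividing cells, then lay at −0.53 (SE 0.0975). Values of single libraries are not in the table. The level in each group was therefore derived from the mean signal and the fold change, with equal weight for each library, and the spread is given as the standard error (SE) of the log2 fold change.

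No promoter region of the 9 genes rose and 1 fell, while single distal elements changed by up to 5.48-fold. A region was called when the adjusted p-value of DESeq2 over all regions was under 0.05 and the change exceeded 1.5-fold. None of the 25 promoter regions was called higher, against 3.56% of all 20094 promoter regions. A single one, at AKT1, was called lower, which is 4.0% against 9.04% of all. With the adjusted p-value alone, 2 promoter regions were higher (8.0%, against 10.2% of all) and 5 of the 25 were lower (against 34.7% of all). The median log2 fold change of the promoter regions was 0.05, and that of all promoter regions was −0.13.

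Of the 98 distal regions, 18 were called higher (18.4%, against 18.1% of all 88448 distal regions) and 7 were called lower (7.14%, against 10.6% of all). With the adjusted p-value alone these counts were 23 higher (23.5%, against 23.4%) and 21 lower (21.4%, against 18.3%). The shares thus lay near the background, and the median log2 fold change of the distal regions, 0.07, lay near the 0.08 of all distal regions. Called higher regions occurred at 7 of the 9 genes and called lower ones at 5. Removing the trend of the fold change on GC content turned the 18 higher and 7 lower distal calls into 14 and 11 (14.3% and 11.2%, against 15.4% and 12.8% of all). These shares moved in the same directions as the background, and by more.

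**Figure D1:**
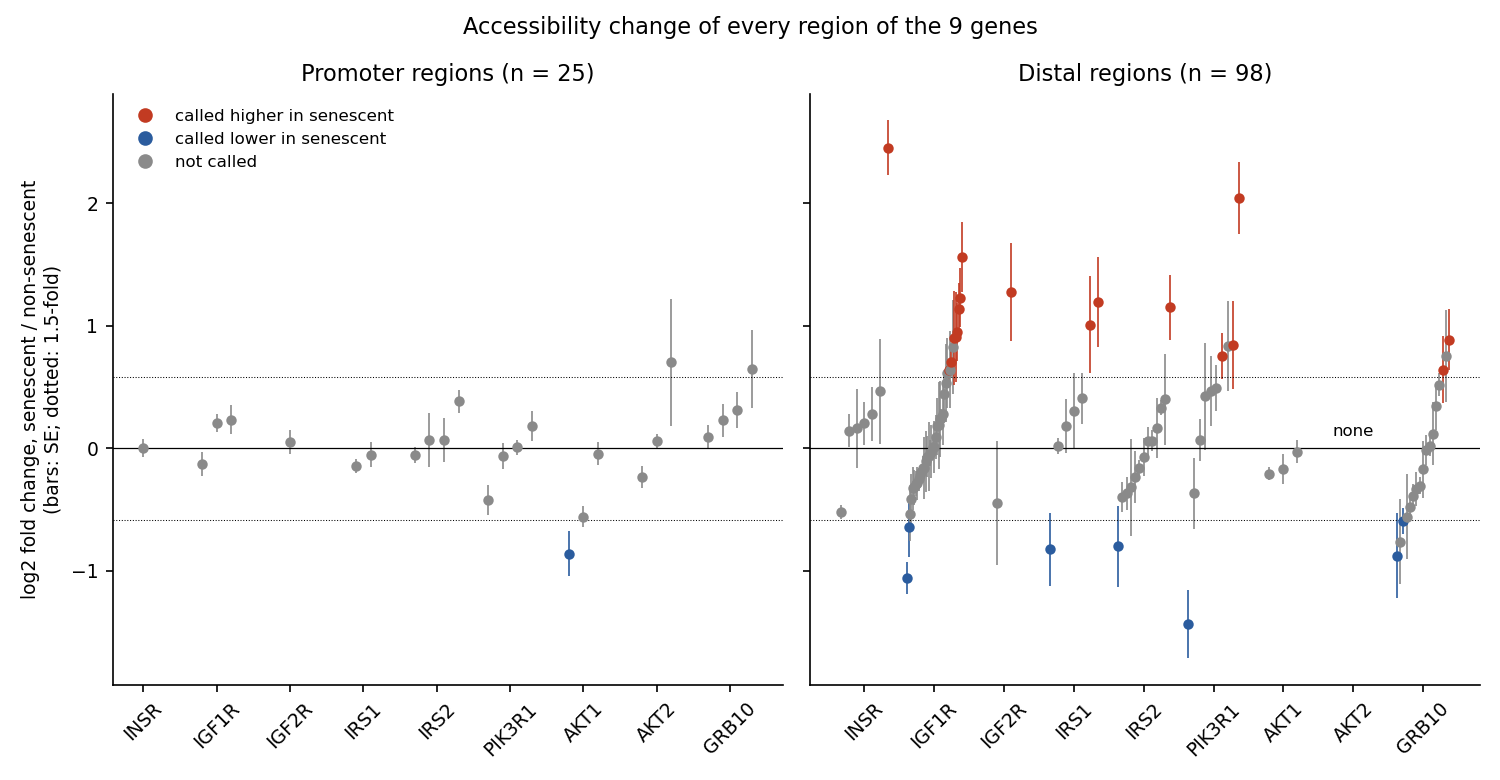
Log2 fold change (senescent over non-senescent) of every promoter region (left, 25) and distal region (right, 98) of the 9 genes, sorted within a gene, with bars for the SE and dotted lines at 1.5-fold. The 1 called promoter region is at AKT1, the called distal regions run from −1.44 to 2.45, and AKT2 has no distal region.

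INSR, the insulin receptor, had a strong and steady promoter and 1 distal element that opened widely. Its only promoter region, at chr19:7293364-7295258 over the first exon, had a derived signal of 987 in non-senescent and 990 in senescent cells. The log2 fold change was 0.004 (SE 0.0762, 95% interval from −0.15 to 0.15), so a 1.5-fold change in either direction lies outside the interval. The region that opened, chr19:7157639-7157995, lies in intron 9, 136.6 kb downstream of the main start site and 10161 bp from the nearest start of a coding INSR transcript. Its signal was 29.9 in non-senescent and 164 in senescent cells, a log2 fold change of 2.45 (DESeq2 adjusted p = 1.32e-25, SE 0.225), which exceeded 99.5% of all regions. Its sequence, shown above, held none of the motifs searched.

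The other INSR elements pointed less far. The strongest, chr19:7179185-7180200 in intron 3, had a signal of 1933 in non-senescent and 1348 in senescent cells. Its log2 fold change of −0.52 (DESeq2 adjusted p = 5.79e-18, SE 0.0573) stopped short of 1.5-fold, although it passed that limit at −0.65 once the trend on GC content was removed. A neighbour of nearly the same strength in intron 2, with a mean signal of 1311, lay at 0.14. Its SE of 0.137 was 2.15 times the SE usual for that signal and the only one of the 123 regions above 1.2 times. The other 4 distal regions ranged from 0.16 to 0.47 and passed neither limit.

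IGF1R, the receptor for IGF1 and IGF2, had the most distal regions of the 9 genes, 39, in a gene of 316 kb. Of these, 8 were called higher and 2 lower (20.5% and 5.13%, against 18.1% and 10.6% of all distal regions), and 27 lay in intron 2, which held 6 of the higher and both of the lower ones. With the GC trend removed 4 were called higher and 3 lower, of which intron 2 held 3 and 3. The largest rise was at chr15:98812810-98813196, from a signal of 33.4 to 98.6, with a log2 fold change of 1.56 (DESeq2 adjusted p = 3.62e-07, SE 0.283). The largest fall was at chr15:98843731-98844335, further into the same intron, from 316 to 152, with a log2 fold change of −1.06 (DESeq2 adjusted p = 1.76e-14, SE 0.130). Elements that opened and closed thus lay within 1 intron.

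The other called elements of IGF1R were of several strengths. A pair of fairly strong ones in intron 2, at mean signals of 389 and 500, rose by 0.71 and 0.64 on the log2 scale with SEs of 0.110 and 0.0933. With the GC trend removed they lay at 0.57 and 0.48 and were no longer called. Weaker ones rose by 1.23 and 1.14, from signals of 41.2 and 50.7 to 96.6 and 111. The region of the 1.23 rise lies 1824 bp from the other called fall of the gene, of −0.64 (SE 0.246), so neighbours in intron 2 moved in opposite directions. The remaining 3 rises, of 0.90 to 0.95, started from signals of 20.3 to 46.7, and 2 of them, at 0.90 and 0.91, had adjusted p-values of 0.045 and 0.0328 by DESeq2. The strongest element, with a mean signal of 3072 in intron 2, went from 3278 to 2866, a log2 fold change of −0.19 (SE 0.0473) that was not called.

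The 3 promoter regions of IGF1R lay within 0.23 of no change on the log2 scale. The strongest, chr15:98647031-98648105, just upstream of the main start, had signals of 895 and 1034 and a log2 fold change of 0.21 (DESeq2 adjusted p = 0.0154, SE 0.0747), past the p limit and not past 1.5-fold. The region over the first exon lay at 0.23 (SE 0.117) and the one in intron 1 at −0.13 (SE 0.0993), and neither passed the adjusted p limit.

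IGF2R, which binds IGF2 without signalling through a kinase of its own, had 1 promoter region, at chr6:159968458-159970192. Its signals were 561 and 582, and its log2 fold change was 0.05 (SE 0.0978, 95% interval from −0.14 to 0.24). Of its 2 distal regions, a weak one in intron 1, chr6:159983725-159983947, rose from 14.6 to 35.3, by 1.28 on the log2 scale (DESeq2 adjusted p = 0.0052, SE 0.402). The other one lay upstream, had a mean signal of 16.7 and lay at −0.45.

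IRS1 and IRS2, the docking proteins that link the receptors to phosphoinositide 3-kinase, had strong promoter regions, none of them called. The strongest promoter region of IRS1, chr2:226800764-226801755, had signals of 1746 and 1581 and a log2 fold change of −0.14 (SE 0.0599), past the p limit and not past 1.5-fold. That of IRS2, chr13:109786520-109787890, had signals of 1292 and 1244 and a log2 fold change of −0.05 (SE 0.0691), with a 95% interval from −0.19 to 0.08. A second IRS2 promoter region, chr13:109784079-109784857 in the coding part of exon 1, had signals of 460 and 600. Its log2 fold change of 0.38 (DESeq2 adjusted p = 0.000275, SE 0.0949) was the highest among promoter regions with a signal over 100 and was not called. The remaining promoter regions, 1 of IRS1 and 2 of IRS2, lay between −0.05 and 0.07.

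The strong distal elements of both substrates also changed little, and the called ones were weak. IRS1 had an element in its intron 1 at a mean signal of 1550, nearly that of its promoter, with a log2 fold change of 0.02 (SE 0.0656). Its called regions had signals of 28.5 to 43.1: the one at chr2:226730542-226730718 rose by 1.19 (SE 0.367), one upstream of the gene rose by 1.01 (SE 0.397), and chr2:226728470-226728938 fell, with a log2 fold change of −0.83 (SE 0.298). The first and the last of these lie 1604 bp apart, just past the 3′ end of the gene, and changed in opposite directions. Their DESeq2 adjusted p-values were 0.0041 and 0.0162, so the fall was not called at a limit of 0.01, nor was the rise upstream. With the trend on mean signal removed, IRS1 kept 1 called rise and 1 called fall. IRS2 had strong elements upstream of the gene, at 50.4 and 83.2 kb from the start, with mean signals of 1384 and 1237. The nearer one had signals of 1226 and 1542 and lay at 0.33 (SE 0.0616), the farther one lay at −0.16 (SE 0.0635), and neither passed 1.5-fold.

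The called elements of IRS2 are those shown above. The one in intron 1, chr13:109778204-109778480, 8.2 kb downstream of the start, rose from 34.0 to 75.5, by 1.15 on the log2 scale (DESeq2 adjusted p = 7.06e-05, SE 0.262), and its window held the AP-1 letters. The one downstream of the gene, chr13:109720677-109721102, fell from 43.2 to 24.8, a log2 fold change of −0.80 (DESeq2 adjusted p = 0.0396, SE 0.333), and its window held the FOXO letters. The fall was not called at an adjusted p limit of 0.01.

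PIK3R1 encodes the regulatory subunits of phosphoinositide 3-kinase and has several alternative start sites. The promoter of its long form, chr5:68214988-68216836, was the strongest promoter region of the 9 genes, with signals of 1991 and 2002 and a log2 fold change of 0.01 (SE 0.0605). Another promoter region, 10.5 kb into the gene, had signals of 303 and 227 and a log2 fold change of −0.42 (DESeq2 adjusted p = 0.00246, SE 0.123) and was not called. The other 2, at internal start sites, lay at 0.18 (SE 0.124) and −0.06 (SE 0.104).

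Of the 10 distal regions of PIK3R1, 3 were called higher, all downstream of the gene, and 1 was called lower, upstream. The shares over all distal regions were 18.1% and 10.6%. With the trend on mean signal removed 2 were called higher and 1 lower, and the counts were the same with the GC trend removed. The 3 rises were all of the PIK3R1 regions past the 3′ end. The largest rise, chr5:68320529-68320916, 105 kb downstream of the main start, went from 21.7 to 89.3, by 2.04 on the log2 scale (DESeq2 adjusted p = 6.36e-11, SE 0.293), and exceeded 98.8% of all regions. The 2 next to it rose by 0.75 (SE 0.191) and 0.84 (SE 0.356), the latter with an adjusted p of 0.0432 by DESeq2 and no longer called with the GC trend removed. Upstream, 1 region fell from 81.6 to 30.2, a log2 fold change of −1.44 (DESeq2 adjusted p = 1.67e-06, SE 0.276), which was the largest fall among the 123 regions. The other 2 upstream regions lay at −0.37 and 0.07, and the 4 in intron 2 lay between 0.42 and 0.84 and were not called. Whether downstream and upstream elements differ as groups was not tested. The window of the largest rise held the MAF site.

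**Figure D2:**
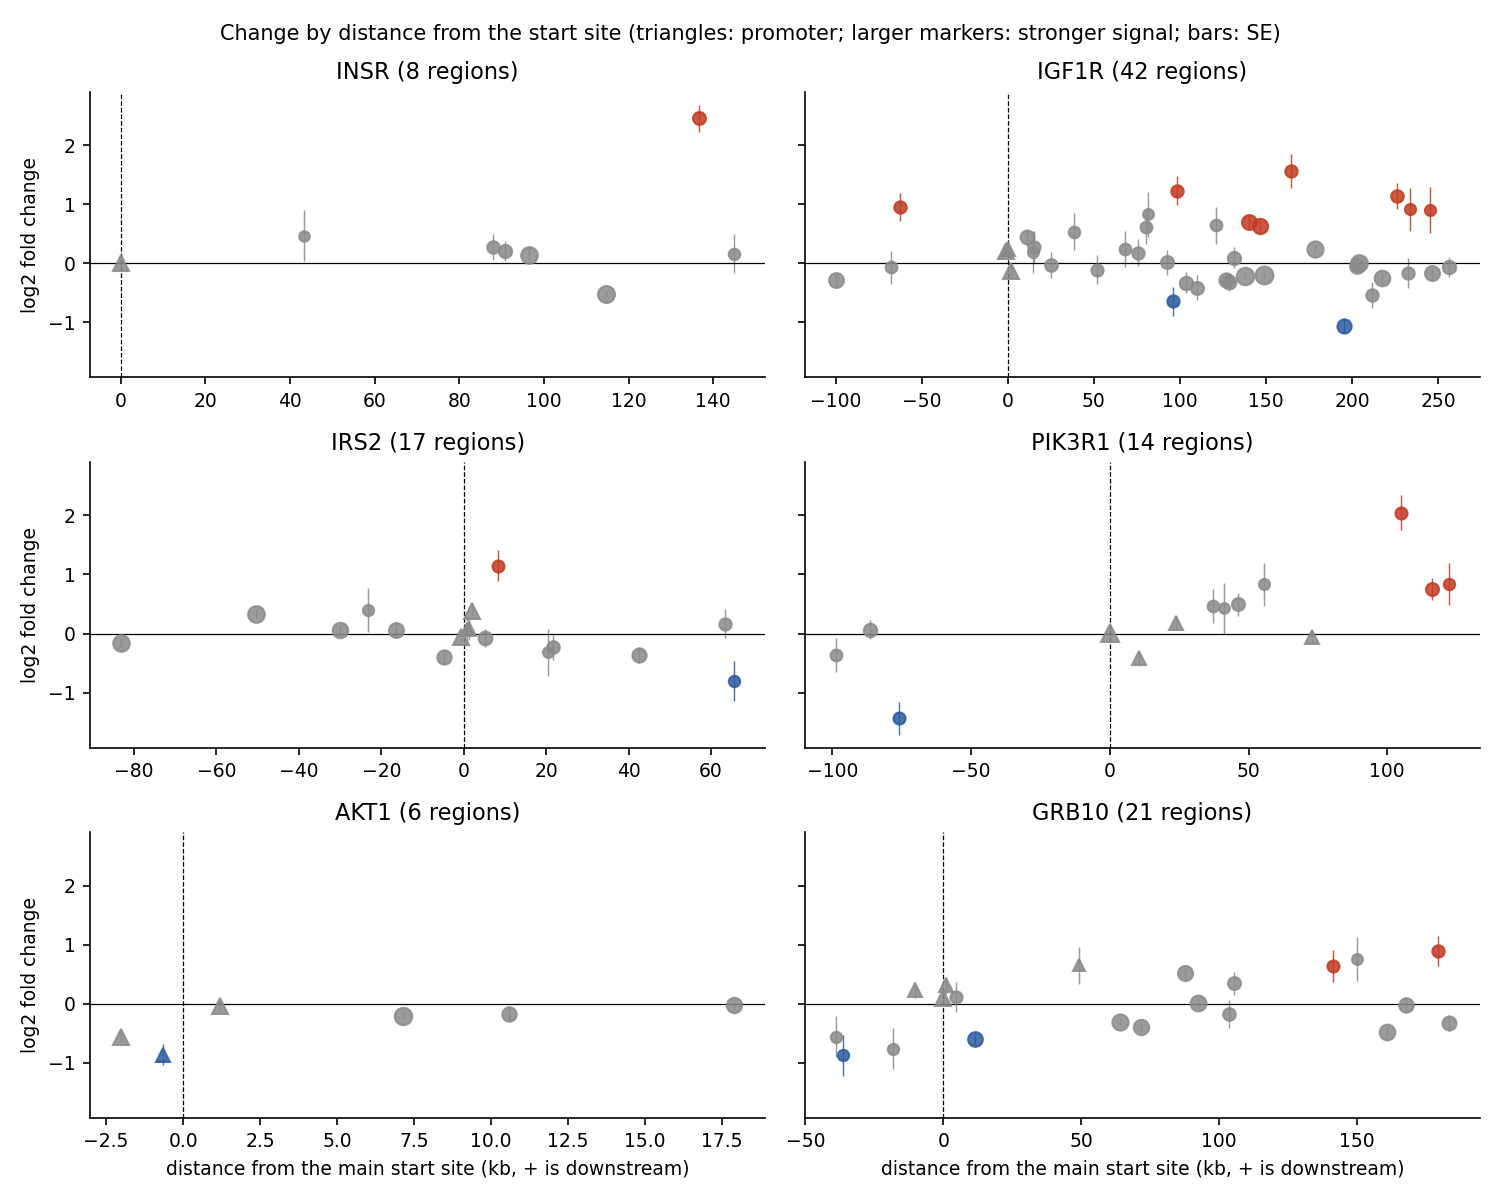
Log2 fold change (vertical axis, bars for the SE) against the distance from the main start site in kb (horizontal axis, positive values downstream) for 6 of the genes, with triangles for promoter regions, circles for distal regions, red for called higher, blue for called lower and grey for not called. The INSR rise of 2.45 stands 136.6 kb from the start, the PIK3R1 rises stand downstream and its fall of −1.44 upstream, and the 6 AKT1 regions all lie below 0.

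AKT1, the widely expressed AKT kinase, was the only gene with a called promoter region, and all 6 of its regions were below 0. They are rich in GC, with medians of 61.4% at promoters and 67.1% at distal regions. Over the whole table, regions of 60% GC were themselves centred at −0.13, so values slightly below 0 are usual for such regions. The called region, chr14:104796231-104796570, lies upstream of the main start and is shown above by sequence. Its signal was 151 in non-senescent and 83.4 in senescent cells, a log2 fold change of −0.86 (DESeq2 adjusted p = 1.49e-05, SE 0.181). The next region upstream, chr14:104797395-104798134, was the strongest of the promoter regions, with signals of 743 and 504. Its log2 fold change of −0.56 (DESeq2 adjusted p = 9.56e-10, SE 0.0855) lay just short of 1.5-fold. The third promoter region, inside the gene, lay at −0.04 (SE 0.0955), and so the lower values were on the upstream side. This fall to 83.4 was not called in a test against a change of 1.5-fold. With the GC trend removed the called region lay at −0.72 and was still called, and the next region upstream lay at −0.40.

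The 3 distal regions of AKT1 all lay in introns and were not called. The strongest, in intron 3, had a mean signal of 2152, more than any AKT1 promoter region, and went from 2306 to 1997, a log2 fold change of −0.21 (SE 0.0530). With the GC trend removed this region lay at −0.06. The others lay at −0.17 and −0.03.

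AKT2, the AKT kinase prominent in insulin-responsive tissues, had 3 promoter regions and no distal one. Its main promoter, chr19:40284811-40285823, had signals of 1184 and 1232 and a log2 fold change of 0.06 (SE 0.0643, 95% interval from −0.07 to 0.18). A region in intron 1 had signals of 596 and 507 and a log2 fold change of −0.23 (DESeq2 adjusted p = 0.0237, SE 0.0884), and a very weak one with a mean signal of 13.5 lay at 0.70 with an SE of 0.516. The promoter regions of highest signal of AKT1 and AKT2 thus stood at −0.56 and 0.06. Their 95% intervals ran from −0.73 to −0.39 and from −0.07 to 0.18. The AKT1 region lies upstream of the main start, while the AKT2 region lies over its main start. The other AKT1 promoter regions, at −0.86 upstream and −0.04 inside the gene, do not overlap the main AKT1 start either. These values therefore do not compare like places, and the difference between the genes was not tested.

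GRB10, the inhibitory adaptor and an imprinted gene, had 4 promoter regions whose values were all above 0 and none of which passed the adjusted p limit. The strongest, chr7:50782426-50783367, had signals of 421 and 450 and a log2 fold change of 0.09 (SE 0.0964). The one at the most upstream start sites lay at 0.23 (SE 0.135), and the others lay at 0.31 (SE 0.148) and 0.65 (SE 0.319).

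Its 17 distal regions went both ways, with 2 called higher and 2 called lower (11.8% each, against 18.1% and 10.6% of all distal regions). With the GC trend removed these were 3 higher and 4 lower, the added falls being a region upstream of the gene and the intron 8 element below. The rises, both in introns toward the 3′ end, were of 0.89 (chr7:50603368-50603619, from 47.6 to 88.2, DESeq2 adjusted p = 0.00176, SE 0.253) and 0.64 (SE 0.275). The falls had log2 fold changes of −0.88 at chr7:50819088-50819424 upstream of the gene (from 43.8 to 23.9, DESeq2 adjusted p = 0.0322, SE 0.351) and of −0.59 in intron 2, at a mean signal of 351 (SE 0.105). All 3 regions upstream of the gene had values below 0, from −0.88 to −0.56. The strongest element, in intron 4, went from 1063 to 860, a log2 fold change of −0.31 (SE 0.0695) that was not called, and a strong one in intron 8, from 801 to 574, lay at −0.48 (SE 0.0877).

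**Figure D3:**
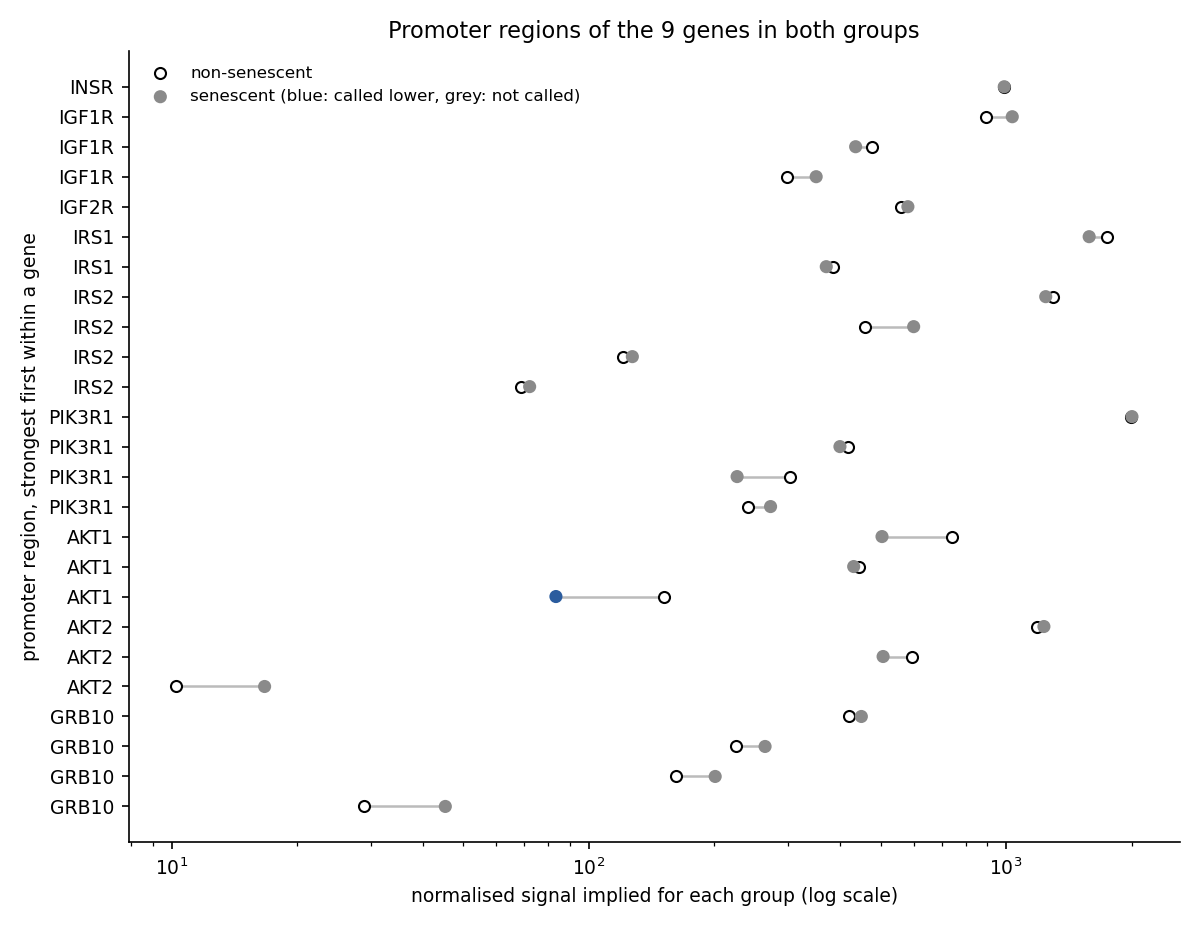
Normalised signal derived for non-senescent cells (open circles) and senescent cells (filled circles) at the 25 promoter regions, on a log axis, the strongest first within each gene. The pairs nearly coincide at INSR (987 and 990) and at the main PIK3R1 promoter (1991 and 2002), and the widest called gap is the AKT1 region that went from 151 to 83.4.

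Set side by side were the main promoters, taken as the promoter region of highest signal of each gene, which at AKT1 lies upstream of the main start. Their mean signals ran from 435 at GRB10 to 1997 at PIK3R1. None of these 9 regions was called, and their log2 fold changes ran from −0.56 at AKT1 to 0.21 at IGF1R. Of the 25 called distal elements, 20 had a mean signal under 100. Their median signals were 61.3 when higher and 55.9 when lower, against 99.9 for the distal regions of the 9 genes that were not called. The median signal over all 88448 distal regions of the table was 76.8, so a signal under 100 is no trait of these elements alone. Of the 9 distal regions with a signal over 1000, at INSR, IGF1R, IRS1, IRS2 and AKT1, none was called, and they ranged from −0.52 to 0.33. With the adjusted p-value alone, 1 of these 9 was higher and 5 were lower. The share called among all distal regions of such strength was not counted. Regions of any gene and kind near a signal of 1218 had a median of −0.12, with 5th and 95th percentiles of −0.52 and 0.32. Few calls and more values below 0 were thus usual at that strength over promoter and distal regions together. Distal regions of that strength were not read alone.

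Weak regions also carried larger errors and a different centre. Over the whole table the median SE was 0.364 at signals from 20 to 40 and 0.0619 above 1000, and the running median of the fold change was 0.27 at a signal of 30 and −0.12 at a signal of 1000. Weak regions of any gene were thus centred above 0. With this trend removed, 14 distal regions of the 9 genes were called higher and 8 lower (14.3% and 8.16%, against 15.2% and 12.2% of all).

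**Figure D4:**
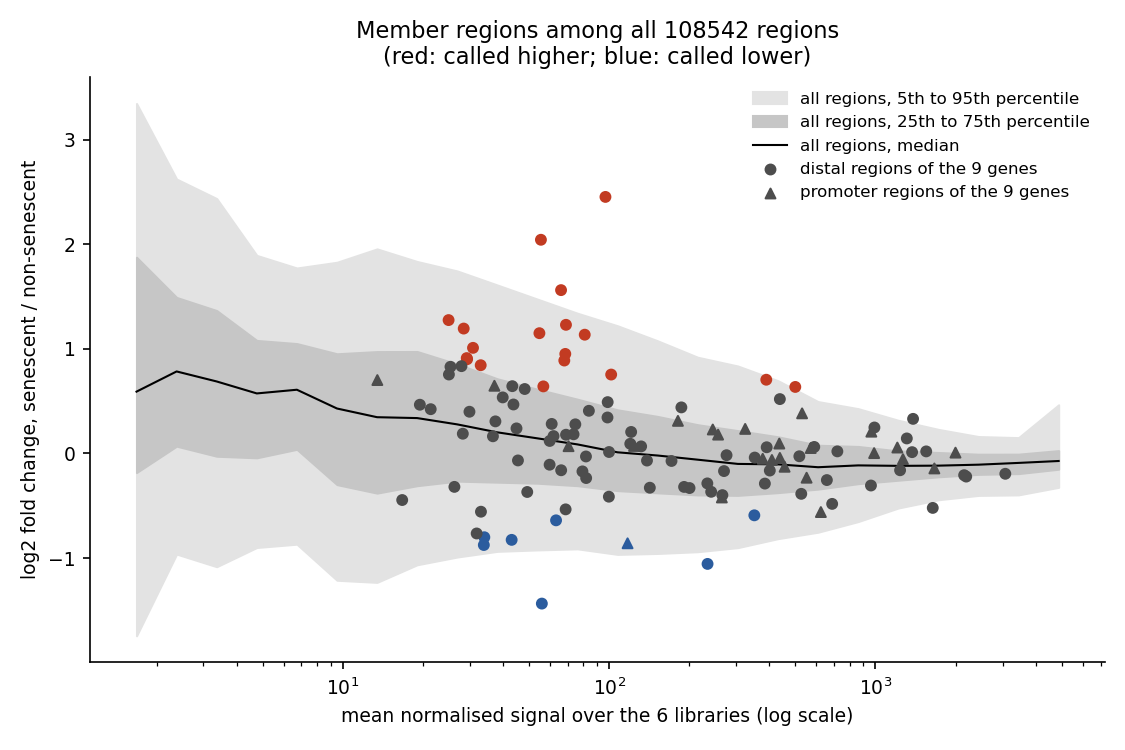
Log2 fold change against mean signal (log axis) for the promoter regions (triangles) and distal regions (circles) of the 9 genes, red when called higher and blue when called lower, over the median and percentile bands of all 108542 regions. The called members sit mostly under a signal of 100, and the members over 1000 lie between −0.52 and 0.33.

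In composition and width the regions lay near the rest of the table. The promoter regions had a median GC content of 64.5% (62.2% over all promoter regions) and a median width of 891 bp (975 bp), and the distal regions 46.8% (44.8% over all distal regions) and 522.5 bp (490.0 bp). Of the distal regions 72 had their midpoint in an intron, 25 between genes and 1 in an exon. In the RefSeq promoter sequences of GRCh38.p14, from 250 bases before to 50 after each start, all 9 genes were matched, with a median GC content of 71.8% against 58.7% over all 35116 promoters. The ratio of observed to expected CpG had a median of 0.79 against 0.58. TATAAA, searched on the strand the table gives, occurred in 1 of the members' promoters, at GRB10, and in 7.33% of all. Several of the genes, GRB10 and PIK3R1 among them, have more than 1 RefSeq promoter. The 1 match is therefore not a share of the 9 genes.

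The motif letters were searched on both strands in the 300 bases around each midpoint. The FOXO letters TGTTTAC occurred in 16 of the 123 windows, at 8 of the 9 genes. They were in 4 of 25 promoter windows (16.0%, against 3.11% of all promoter windows), at INSR, IGF1R and AKT2, and in 12 of 98 distal windows (12.2%, against 9.43%). The letters CAAAACA, the core of an insulin response element, occurred in 13 distal windows (13.3%, against 6.76%) and in 1 promoter window (4.0%, against 3.10%).

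AP-1 letters were in 9 distal windows (9.18%, against 11.1%) and in no promoter window (4.51% of all). The MAF site was in 9 distal windows (9.18%, against 7.16%) and 2 promoter windows (8.0%, against 4.32%), and the RFX site GTTGCCA in 9 distal windows (9.18%, against 5.07%) and 1 promoter window (4.0%, against 3.56%). The MAF site and the AP-1 site can share bases. The E2F letters TTTCCCGC were in 1 promoter window, that of INSR (4.0%, against 1.77%), and in no distal one (0.353% of all). The CREB letters TGACGTCA were in none (1.41% of all promoter and 0.291% of all distal windows), and the CTCF motif was in 2 distal windows (2.04%, against 2.78%) and no promoter window (1.11% of all). These are matches of letters, with no test, and none shows that a factor was bound or which factor would bind there.

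The rest of the pathway was read from a list of 46 other genes, by the promoter region of highest signal, which 45 of them had. At the ligands, INS and IGF2 share 1 region, chr11:2153679-2159212, which rose from a signal of 5009 to 10778, by 1.11 on the log2 scale (SE 0.0372). It was assigned to both by overlap with the 2 kb windows, and its place relative to either start was not examined. Of the 3 promoter regions of INS, 2 were called higher and 0 lower. Of the 9 of IGF2, 2 were called higher and 1 lower. INS and IGF2 were the only called genes of the list (4.44% of the 45), through the shared region, which is counted for both. None was called lower. Of all promoter regions, each counted once, 3.56% were higher and 9.04% lower, so the share of genes called higher is not directly comparable. IGF1 had no promoter region. With the adjusted p-value alone 5 genes were higher, again with both INS and IGF2 (11.1%, against 10.2%), and 12 lower (26.7%, against 34.7%). The median log2 fold change was −0.05. Among kinases, PDPK1, which activates AKT, lay at 0.32 (SE 0.104) and PIK3CB, a catalytic subunit, at 0.29 (SE 0.0759). The lowest values were those of INSRR, a receptor related to INSR, at −0.55 (SE 0.102), EIF4EBP1, a repressor of translation, at −0.49 (SE 0.0692) and GAB1, an adaptor, at −0.46 (SE 0.0691), none of them called. FOXO1 and FOXO3, targets of AKT, lay at 0.13 (SE 0.0702) and 0.12 (SE 0.0601).

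**Figure D5:**
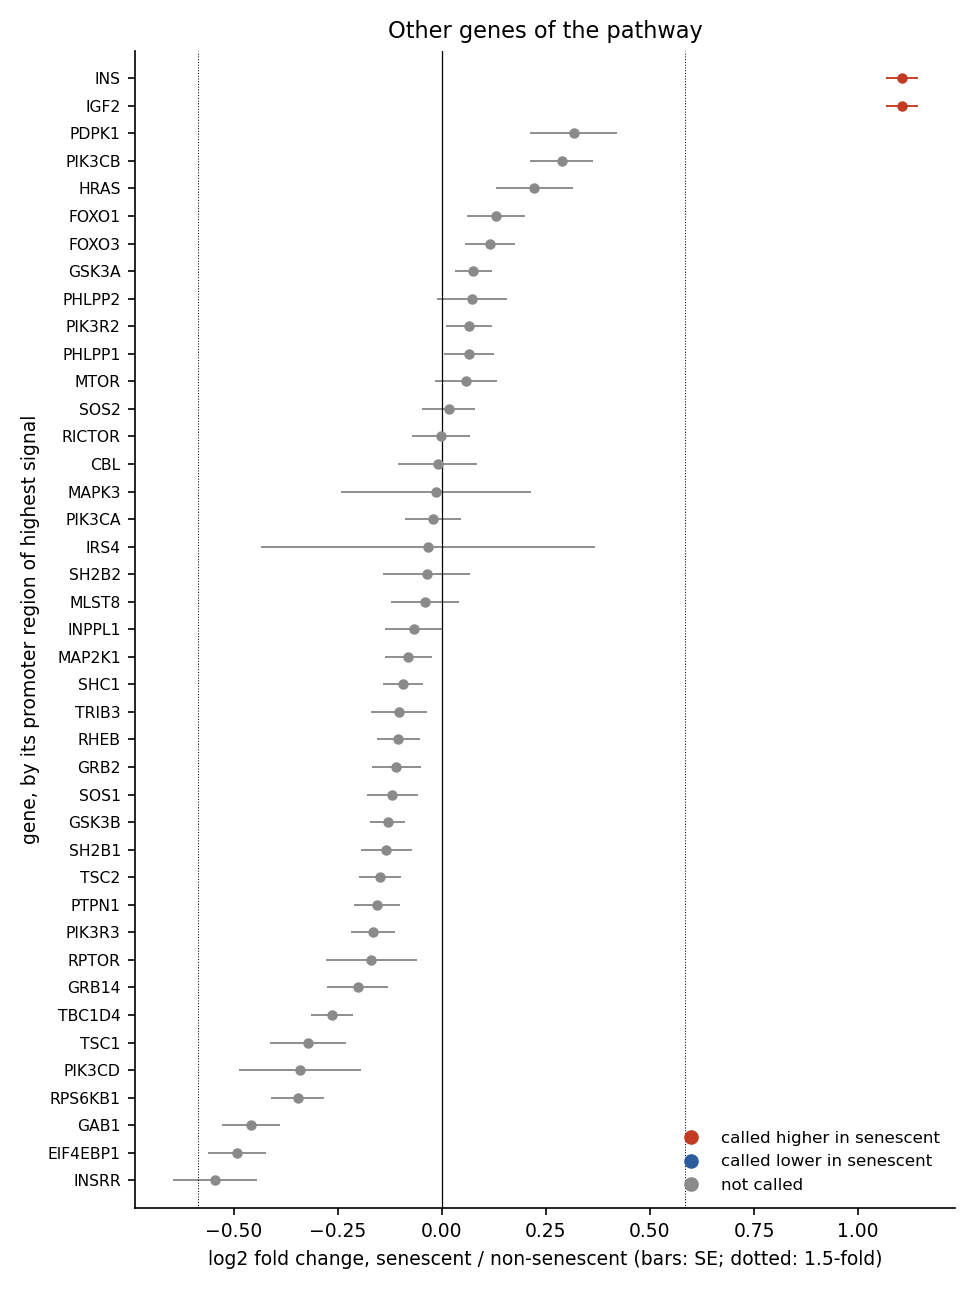
Log2 fold change (horizontal axis, bars for the SE, dotted lines at 1.5-fold) of the promoter region of highest signal for 41 other genes of the pathway, sorted by value. The shared region of INS and IGF2 stands at 1.11, and the other genes shown lie between −0.55 and 0.32 and were not called.

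The limits of the rule can be read from the nearest values on either side. The farthest distal region taken in was one of IGF1R, with its midpoint 99974 bp from a start and a log2 fold change of −0.29, and the nearest left out was one of PIK3R1 at 102836 bp, with 0.43. The promoter region with the widest gap to a start was the IRS2 region at 0.38, at 1726 bp, and the distal region with the narrowest gap was the IGF1R region at 0.90, at 3203 bp.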

How the data were processed

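ATAC-seq of EndoC-βH3 cells was analysed in 3 non-senescent and 3 senescent libraries, grouped by their labels. By the study's methods, the authors used Trim Galore for trimming and Bowtie2 for alignment to hg38. Mitochondrial and duplicate reads were dropped, and positions were shifted for the Tn5 offset. The authors merged MACS2 peaks across libraries, counted reads in them and fitted DESeq2. Tool versions are not given in the sources used here. The deposited signal is the authors' mean of normalised counts over the 6 libraries. The log2 fold change and its SE, the Wald score, and the p-value and adjusted p-value are also the authors' deposited values. The score equalled fold change over SE, and the p-values equalled the Wald p-values and their Benjamini-Hochberg adjustment. The p-values were used as deposited because no value per library was at hand, so no model was fitted here and the depth of each library was not read. The base of region starts is not stated, so starts were read as in a BED file and printed as in the table.

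Regions were joined to GENCODE 44, with introns and exons counted on the canonical transcript. Intervals are 95% normal intervals. Derived group levels split the mean signal by the fold change. Named were, for each gene, the promoter and distal region of highest signal, called promoter regions and the largest called distal rise and fall, and, of the other pathway genes, the 3 largest rises and falls. Regions named beyond these were chosen after their values were seen. A few pathway genes and some sequences are not reported here. Members and lists were chosen with earlier results of these data known. Python 3.11.15, pandas 2.3.3, NumPy 2.4.6 and SciPy 1.17.1 were used, and the calling steps were tested on simulated data.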

Additional observations from a re-analysis of the deposited data

How the results depend on the processing

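Precision is limited by 3 libraries a group and by signal. Per-library values were not at hand, so leaving out a library was not run. No paired analysis was possible because replicate numbers cannot be tied to values that are given only as means over libraries. The counts of the report changed as follows. Without a fold limit, promoter regions were 2 higher and 5 lower, distal regions 21 lower, and other pathway genes 5 higher and 12 lower. In a Wald test against 1.5-fold, 0 promoter regions were lower (1 before), and 3 distal regions were higher (at INSR, IGF1R and PIK3R1) and 2 lower (at IGF1R and PIK3R1). Distal falls, 7 before, were 3 at an adjusted p under 0.01, 4 at a signal of at least 50, 11 with the GC trend removed, 4 within 50 kb, 3 by the nearest start of any gene and 3 inside the member gene. Distal rises by the nearest start of any gene were 11. Over all promoter regions of the other pathway genes 4 were lower, among them IGF2, GRB14 and PHLPP1. The 50 kb limit, the nearest start of any gene and the member gene alone left 73, 62 and 74 of 98 distal regions. Near 0, the INSR promoter turned from 0.0036 to −0.0037 when centred on the median, and the IRS2 promoter from −0.05 to 0.060 with the signal trend removed. The INSR intron 3 region passed 1.5-fold, at −0.65, with the GC trend removed. The other 32 counts stayed within 1.5 times, and 84 values of named regions kept their direction and call.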

Other observations

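At other genes of the pathway, chosen here after their values were seen, the promoter region of highest signal was not called. Values are log2 fold changes of that region, and those of RPS6KB1, TSC1, SHC1, MAP2K1 and HRAS are shared with the start of a neighbouring gene. In the mTOR branch, which couples AKT to protein synthesis, the region of RPS6KB1, the kinase of ribosomal protein S6, had signals of 1393 in non-senescent and 1096 in senescent cells and a log2 fold change of −0.35 (SE 0.0640). TSC1, a brake on this branch, had signals of 589 and 471 and lay at −0.32 (SE 0.0914), and TSC2, its partner, lay at −0.15 (SE 0.0501). These passed the adjusted p limit of DESeq2 without reaching 1.5-fold, as did EIF4EBP1. MTOR itself lay at 0.06 (SE 0.0743), RICTOR at −0.002 (SE 0.0699) and MLST8 at −0.04 (SE 0.0808).

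In the RAS and MAP kinase branch, SHC1, GRB2, SOS1, MAP2K1 and MAPK3 had values from −0.12 to −0.01 that did not pass the adjusted p limit, and HRAS lay at 0.22 (SE 0.0920), which did. Among the genes that restrain the signal, PTPN1, a phosphatase of the receptor, lay at −0.16 (SE 0.0550). GRB14, an adaptor related to GRB10, lay at −0.20 (SE 0.0726) and had a weaker promoter region that was called lower. TBC1D4, an AKT target in glucose uptake, lay at −0.26 (SE 0.0509) at its main promoter and had a weaker promoter region that was called higher.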
